A study of Mus musculus with 6 samples.

Results

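The genes described here are 10 members of the insulin and insulin-like growth factor (IGF) system: the receptors Insr, Igf1r and Igf2r, the receptor substrates Irs1 and Irs2, the ligand Igf1, and the binding proteins Igfbp1, Igfbp4, Igfbp5 and Igfbp7. They were chosen by name from 35527 genes to which estimated reads could be assigned. All 10 were among the 15805 genes with enough reads to be tested. For Insr, each of its 5 annotated transcripts was also read.

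RNA came from the whole pancreas of C57BL/6 mice on day 1 after birth. There were 3 wild-type (WT) libraries and 3 libraries of miR216a-/- genotype (KO), each from its own donor mouse. Mice of the KO genotype lack miR-216a, a microRNA that the series title calls pancreas-specific, and the title names proliferation and endocrine and exocrine cell function as the study's questions. The labels do not say how the allele was made, or the sex or litter of the mice, and 0 transcripts of Mir216a stood in the quantified set, so the genotypes rest on the labels.

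Insulin and IGF1 bind the receptor tyrosine kinases encoded by Insr and Igf1r, which phosphorylate the docking proteins IRS1 and IRS2 and so pass the signal to PI3-kinase and AKT. AKT holds the FOXO transcription factors out of the nucleus, and Insr and Irs2 are known FOXO target genes in several tissues. The receptor encoded by Igf2r has no kinase and carries IGF2 to the lysosome, while the IGFBPs hold IGFs outside the cell and set how much can reach the receptor. In the pancreas, insulin and IGF receptors and IRS2 are known for their part in beta cell mass and function.

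The microRNA missing in the KO mice is shown first, because its seed defines the sites looked for in the members' transcripts. The capitals mark the seed, bases 2 to 8 from the 5′ end, in the RefSeq entry (GRCm38.p6, chromosome 11, 28757018 to 28757039, plus strand).
miR-216a-5p: uAAUCUCAgcuggcaacuguga

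For each gene the coding transcript with the longest 3′ untranslated region was taken, which for each member was its main transcript. This region was searched on its own strand for the letters TGAGATT, which pair with the whole seed. The letters GAGATTA, which pair with bases 2 to 7 and end in an A, were searched likewise. Both forms can share letters in TGAGATTA, which was then counted once. Sites were found in 3 of the 10 members. The letters around each site are shown with the site in capitals, on the gene's strand.
Igf1r: agttgtgactgGAGATTAgatgcaggaag
Igfbp4: aggaaagaatgTGAGATTggattgtgtgt
Igfbp5, first site: aatcaactctcTGAGATTtgagaggaaaa
Igfbp5, second site: agtcatctgacTGAGATTtgccaagtgga

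In GRCm38 the capitals of Igf1r lie on chromosome 7 from 68228832 to 68228838, and those of Igfbp4 on chromosome 11 from 99052363 to 99052369. The Igfbp5 sites lie on chromosome 1, from 72860805 to 72860811 and from 72859910 to 72859916 on the minus strand. Insr, Irs1, Irs2, Igf1, Igf2r, Igfbp1 and Igfbp7 had 0 sites in these windows. Of all tested genes with an annotated 3′ untranslated region, 2564 (17.0%) had at least 1 such site. Long regions hold more by their length: among genes whose region was 0.8 to 1.25 times as long, 64.5% had a site for Igf1r, 27.6% for Igfbp4 and 42.2% for Igfbp5. The same share was 59.2% for Igf1, 45.6% for Insr, 43.5% for Irs1, 24.3% for Irs2, 13.9% for Igf2r, 5.07% for Igfbp1 and 2.27% for Igfbp7, all members with 0 sites, so 3 members with a site among 10 is to be read against these shares. A match of letters is a description and was not tested as a binding site.

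Before the results, 2 libraries stood apart from the others. WT 1 had the highest level of 11 of 11 liver genes (Ttr not among them), with Alb, the albumin gene, at 219 CPM (read counts scaled by library size) against 6.41 to 15.1 CPM in the other libraries. KO 1 had 0.141 CPM of the Y-linked gene Ddx3y against 61.8 to 102 CPM elsewhere, and the sex of the mice is not in the labels. Depth lay between 20565387 and 23028718 estimated reads per library. Members had 436 to 12366 estimated reads in each library, except Igfbp1 with 5 to 343.

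Across all tested genes, edgeR's quasi-likelihood test with Benjamini-Hochberg adjustment called 0 genes between KO and WT (0% called). At an unadjusted p under 0.05, 1996 genes differed, of which 889 (5.62%) were higher in KO and 1107 (7.00%) lower. DESeq2 called 419 genes and limma-voom called 2. For 1433 genes (9.07%) the lowest KO library exceeded the highest WT library, and for 1630 (10.3%) the reverse held.

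Of the 10 members, 0 passed the adjusted threshold in edgeR, and 3 (Insr, Irs2 and Igf1r) were higher in KO at an unadjusted p under 0.05, with 0 lower. The same 3 were the members whose KO libraries all lay above all WT libraries in CPM, and 0 members lay below. DESeq2 called Insr and Irs2 higher, where it called 0.804% of tested genes higher. The median log2 difference was -0.06 over the 10 members and 0.01 over all tested genes. Because the members were picked with earlier results of these libraries known, these counts describe them and are not independent evidence. In whole tissue, fewer cells of a type and less RNA per cell cannot be told apart.

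**Figure D1:**
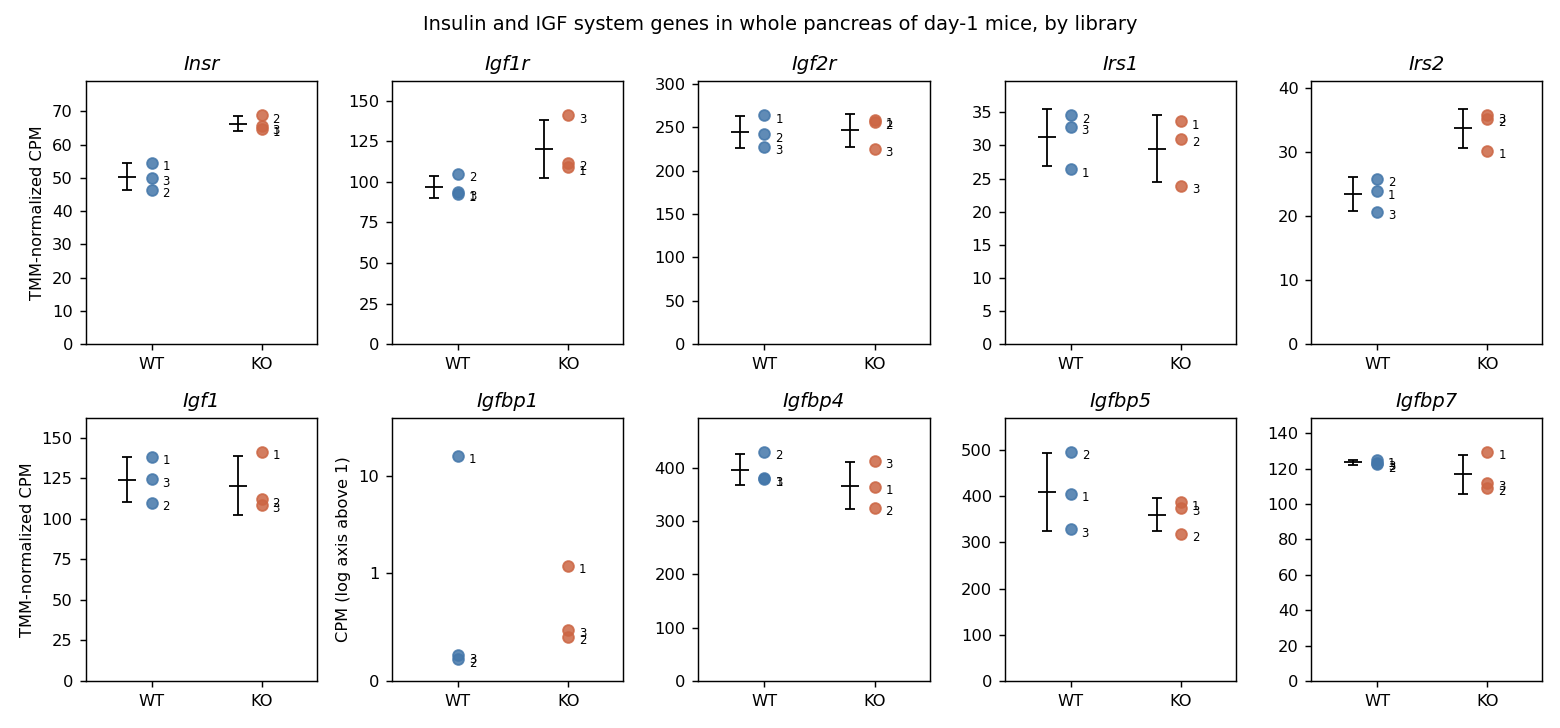
Normalized CPM (vertical axes, from 0) of the 10 members in WT (blue) and KO (orange), with 1 point per library labelled by its number and the mean ± SD over 3 libraries to the left of each group; Igfbp1 has a log axis above 1 CPM and no mean. The KO points of Insr, Igf1r and Irs2 lie above all WT points, and for the other 7 genes the groups overlap.

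Insr, the insulin receptor gene, spans 3122061 to 3279617 on the minus strand of chromosome 8 (GRCm38). It stood at 54.5, 46.5 and 50.0 CPM in WT 1 to 3 and at 64.7, 68.8 and 65.5 CPM in KO 1 to 3. The KO libraries lay close together and all above WT. The WT mean was 50.4 ± 4.03 CPM and the KO mean 66.3 ± 2.20 CPM (SD, n = 3 each), a log2 difference of 0.40 ± 0.09 (SE, 95% interval 0.19 to 0.61). The adjusted p was 0.206 in edgeR's quasi-likelihood test and 0.0234 in DESeq2. Without KO 1 the log2 difference was 0.42, with an edgeR adjusted p of 0.120.

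Igf1r, the main receptor for IGF1 and IGF2, lies on chromosome 7 from 67952827 to 68233668. Its levels were 92.6, 105 and 93.5 CPM in WT 1 to 3 and 109, 111 and 141 CPM in KO 1 to 3. KO 3 was the highest library, and KO 1 exceeded WT 2, the highest WT library, by little. The log2 difference was 0.31 ± 0.12 (SE, 95% interval 0.04 to 0.59), with an adjusted p of 0.335 in edgeR. It rested on single libraries: without KO 3 it was 0.18, and the unadjusted p exceeded 0.05 without KO 3, without WT 1 and without WT 3.

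Igf2r, the IGF2 clearance receptor (chromosome 17, 12682406 to 12769664), had 264, 242 and 228 CPM in WT and 259, 256 and 225 CPM in KO. The groups overlapped throughout. The log2 difference was 0.01 ± 0.10 (SE, 95% interval -0.21 to 0.24; edgeR adjusted p = 0.973), and its sign turned with the scaling, to -0.01 with upper-quartile factors.

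Both substrates were measured from 1 transcript each. Irs2 (chromosome 8, 10984681 to 11008458) stood at 23.9, 25.9 and 20.7 CPM in WT 1 to 3 and at 30.2, 35.2 and 35.7 CPM in KO 1 to 3, with every KO library above every WT library. The WT mean was 23.5 ± 2.60 CPM and the KO mean 33.7 ± 3.03 CPM (SD, n = 3 each). The log2 difference of 0.52 ± 0.12 (SE, 95% interval 0.25 to 0.80) was the highest of the 10 members, with an adjusted p of 0.206 in edgeR. DESeq2 gave an adjusted p of 0.0208. Without KO 1 the log2 difference was 0.59, with an edgeR adjusted p of 0.0693.

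Irs1 (chromosome 1, 82233101 to 82291416) showed no such separation. Its levels were 26.4, 34.5 and 32.8 CPM in WT and 33.6, 31.1 and 23.9 CPM in KO, with the lowest value in KO 3 and the next lowest in WT 1. The log2 difference was -0.08 ± 0.16 (SE, 95% interval -0.44 to 0.28; edgeR adjusted p = 0.875). Whether the differences of Irs1 and Irs2 differ from each other was not tested.

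**Figure D2:**
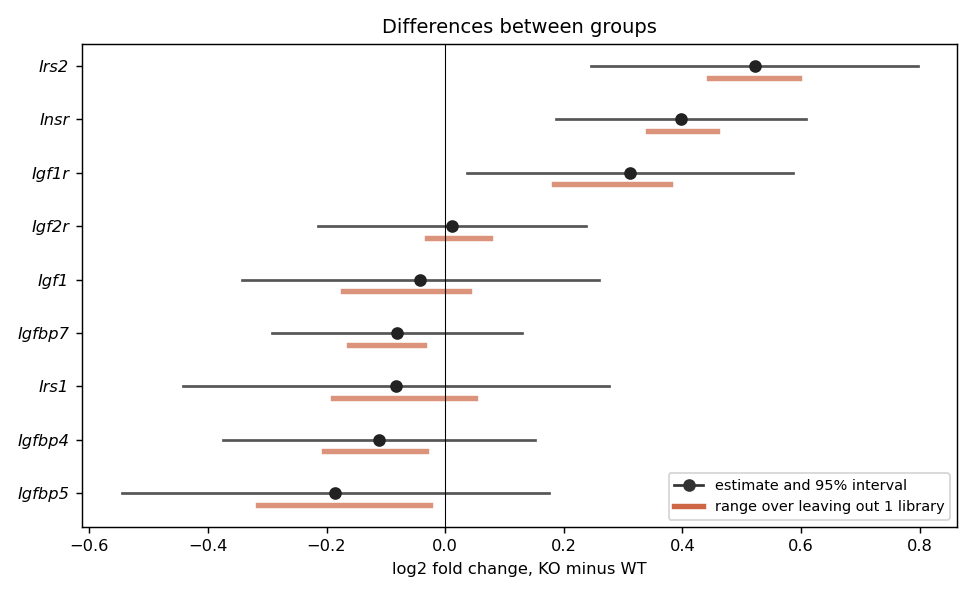
Log2 fold change of KO minus WT (horizontal axis) for 9 members, with the edgeR estimate as a point, its 95% interval as a grey line and the range over leaving out each library in turn as an orange bar; Igfbp1 is not drawn, because its estimate of -3.00 turned to 1.63 without WT 1. The intervals of Irs2, Insr and Igf1r lie above 0, and those of the other 6 include 0.

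Reads of Insr were assigned almost wholly to 1 form. Insr-201, with 21 exons, 9355 bases and a coding sequence of 4119 bases, held 97.5% of them. The other forms in the annotation are fragments: Insr-204, a retained intron, had 20.7 to 31.1 estimated reads per library, Insr-203 had 2.9 to 8.1, and the last 2 were at 0 except for 3.4 and 1.8 reads in KO 3. Insr-201 itself had 1122, 1130 and 1024 estimated reads in the WT libraries and 1339, 1320 and 1499 in the KO libraries. Tested among 42372 transcripts, of which edgeR called 0 (0%), it had a log2 difference of 0.37 ± 0.09 (SE) and an adjusted p of 0.615.

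The share of Insr reads on Insr-201 was 97.4 ± 0.183% in WT and 97.6 ± 0.250% in KO (SD, n = 3 each). The difference was 0.250 percentage points (exact permutation test, two-sided, p = 0.3). The smallest p this design allows is 0.1, and the share lies near its ceiling because the other forms are fragments, so the test could not have shown a change. As a share of TPM (a level per length of transcript) it was 88.2 ± 2.52% and 88.9 ± 1.85% (exact permutation p = 0.7).

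The insulin receptor is known to exist in forms without and with the short exon 11, the first binding IGF2 more strongly and the second being the main form of adult liver. The exon is shown because it decides what could be read from the transcripts. It has 36 bases, on the minus strand of chromosome 8 (chr8:3181702-3181737, GRCm38), and among the 5 transcripts only Insr-203, a coding fragment of 672 bases, contains an exon of that length.
Insr exon 11: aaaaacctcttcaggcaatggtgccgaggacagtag

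Insr-201 lacks it. With this as the only full-length form in the quantified set, the share of transcripts with exon 11 was not estimated here. The 2.9, 8.1 and 3.2 reads of Insr-203 in WT and 3.6, 4.3 and 6.1 in KO were too few to be tested.

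Igf1, the only ligand among the members, lies on chromosome 10 from 87858265 to 87937042. It had 138, 110.1 and 124 CPM in WT 1 to 3 and 141, 112 and 108 CPM in KO 1 to 3, so that the highest and the lowest library were both KO. The log2 difference was -0.04 ± 0.13 (SE, 95% interval -0.34 to 0.26; edgeR adjusted p = 0.933). Its longest form held 85.8% of its reads. A short form, Igf1-206, had 116, 147 and 131 estimated reads in WT and 150.1, 183 and 168 in KO, at a log2 difference of 0.39 ± 0.19 (SE) and an edgeR adjusted p of 0.809. Another short form of 798 bases, with 6.28% of the reads against 5.58% for Igf1-206, had 166, 183 and 188 in WT and 145, 94.1 and 232 in KO, at a log2 difference of -0.20 ± 0.29 (SE, edgeR adjusted p = 0.961), and its groups overlapped. Both forms were named after their values were seen.

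The 3 abundant binding proteins had lower means in KO, with no difference beyond the spread. Igfbp4, which restrains IGF action until it is cleaved, stood at 379, 429 and 380.1 CPM in WT and 363, 324 and 412 CPM in KO (chromosome 11, 99041244 to 99054392). Its log2 difference was -0.11 ± 0.11 (SE, edgeR adjusted p = 0.739), and leaving out 1 library moved it between -0.20 (without KO 3) and -0.033 (without KO 2), with -0.051 without WT 2. Igfbp5, which binds IGFs and extracellular matrix, stood at 404, 496 and 328 CPM in WT and 386, 319 and 375 CPM in KO (chromosome 1, 72857932 to 72874884). Here WT alone spanned almost the whole range, and the log2 difference was -0.19 ± 0.16 (SE, edgeR adjusted p = 0.677). It moved to -0.025 without WT 2, -0.11 without KO 2 and -0.32 without WT 3.

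Igfbp7, a secreted protein with low affinity for IGFs and a frequent vessel marker, was the steadiest of the members in WT. It had 125, 122 and 123 CPM there, and 129, 109 and 112 CPM in KO (chromosome 5, 77349240 to 77408041). The log2 difference was -0.08 ± 0.09 (SE, edgeR adjusted p = 0.765), with -0.16 without KO 1, -0.036 without KO 2 and -0.051 without KO 3. KO 2 had the lowest value of all 6 libraries for each of Igfbp4, Igfbp5 and Igfbp7, and WT 2 the highest for Igfbp4 and Igfbp5. Summed over 12 mesenchyme and matrix genes, KO 2 was likewise lowest at 7370 CPM against 11410 to 13950 CPM in the other libraries, with WT 2 highest. Collagen genes make up most of that sum. In the same list 2 genes were higher in KO and 4 lower at an unadjusted p under 0.05. Over all tested genes these shares were 5.62% and 7.00%. The 2 higher, Pdgfra and Pdgfrb, had 131 and 73.0 CPM in KO 2, above their WT ranges of 92.3 to 97.2 and 59.8 to 68.7 CPM. The part of mesenchyme in the values of Igfbp4, Igfbp5 and Igfbp7 was not tested. Igfbp4 and Igfbp5 are also members with sites for the miR-216a seed, as is Igf1r, whose mean was higher in KO.

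Igfbp1, a binding protein made chiefly by the liver and repressed by insulin (chromosome 11, 7197782 to 7202546), was close to the limit of counting in most libraries. It had 343, 5 and 5 reads in the WT libraries and 25, 8 and 11 in the KO libraries, or 16.3, 0.200 and 0.237 CPM against 1.18, 0.407 and 0.470 CPM. Only WT 1 stood high, and the 3 KO libraries lay between WT 1 and the other WT libraries. The log2 difference with all libraries was -3.00 ± 1.49 (SE, 95% interval -6.45 to 0.44; edgeR adjusted p = 0.465). Without WT 1 it turned to 1.63 (edgeR adjusted p = 0.390), so that its direction rested on that library.

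The liver genes moved with it. Alb had 219, 6.41 and 9.78 CPM in WT and 15.1, 8.44 and 6.84 CPM in KO, and Ahsg, the gene of the liver plasma protein fetuin-A, had 79.6, 0.762 and 1.42 CPM in WT and 7.91, 1.12 and 2.27 CPM in KO. WT 1 and KO 1 were the highest and second highest libraries for Igfbp1, Alb and Ahsg alike. The summed level of 11 liver genes, Ttr left out because islets express it, was 409 CPM in WT 1, 39.4 CPM in KO 1 and 15.6 to 17.9 CPM in the other 4 libraries. Per 100 CPM of Alb, Igfbp1 was 7.41, 3.13 and 2.43 in WT and 7.81, 4.82 and 6.88 in KO. The part of liver RNA in the Igfbp1 values was not tested.

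**Figure D3:**
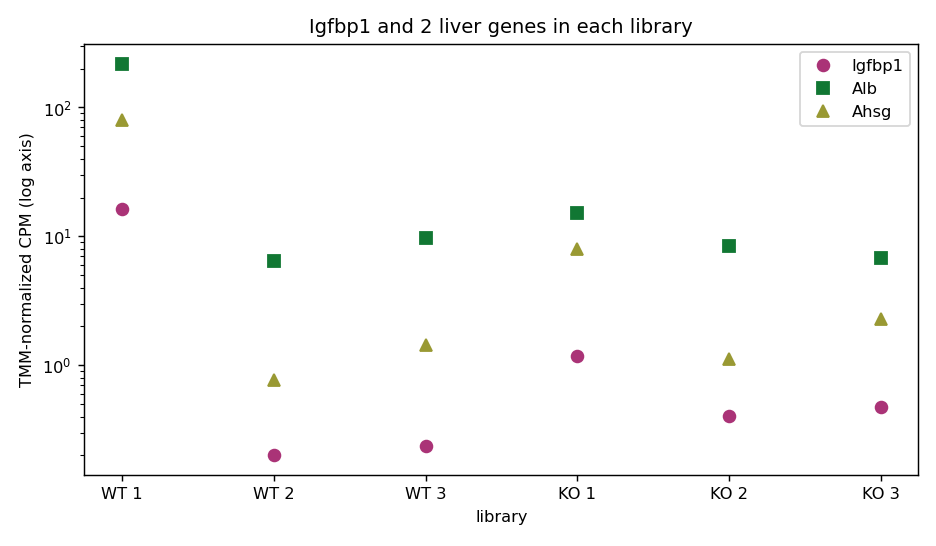
CPM on a log axis of Igfbp1, Alb and Ahsg in each of the 6 libraries. All 3 genes are highest in WT 1, at 16.3, 219 and 79.6 CPM, and next highest in KO 1.

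Levels of different genes were set side by side only as TPM, which divides by length. Over the 6 libraries the order was Igfbp4 with a mean of 230.2 TPM (168 to 274), Igfbp7 with 198 (168 to 223), Igfbp5 with 80.2 (60.2 to 113), Igf1 with 56.5 (49.7 to 62.9), Igf2r with 33.4 (27.7 to 36.7) and Igf1r with 13.5 (9.91 to 17.5). Insr followed with a mean of 8.69 TPM (6.69 to 10.5), Irs2 with 5.97 (3.80 to 7.82), Irs1 with 4.24 (3.48 to 5.26) and Igfbp1 with 3.05 (0.208 to 15.8). Binding proteins were thus the most abundant members and the receptors and substrates the least, apart from Igfbp1. Neighbours whose ranges did not overlap were Igfbp7 and Igfbp5, Igf1 and Igf2r, and Igf2r and Igf1r. All other neighbours overlapped, and by CPM per longest transcript Igfbp4 changed places with Igfbp7, and Igf1 with Igf2r. In TPM the KO libraries of Insr and Irs2 also lay above all WT libraries. Those of Igf1r did not: WT 2 had 15.4 TPM, KO 1 14.1 TPM and KO 2 13.5 TPM.

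The ligand made by the beta cells dwarfed these levels: Ins2 stood at 8095 to 14850 TPM and Ins1 at 2006 to 3937 TPM. Igf2, the fetal growth factor, had 510.2 to 742 TPM, above every TPM value of Igf1. Insrr, the insulin receptor-related receptor, which senses alkaline pH and is found in islets, lay between 8.35 and 13.6 TPM, a range that overlapped that of Insr.

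**Figure D4:**
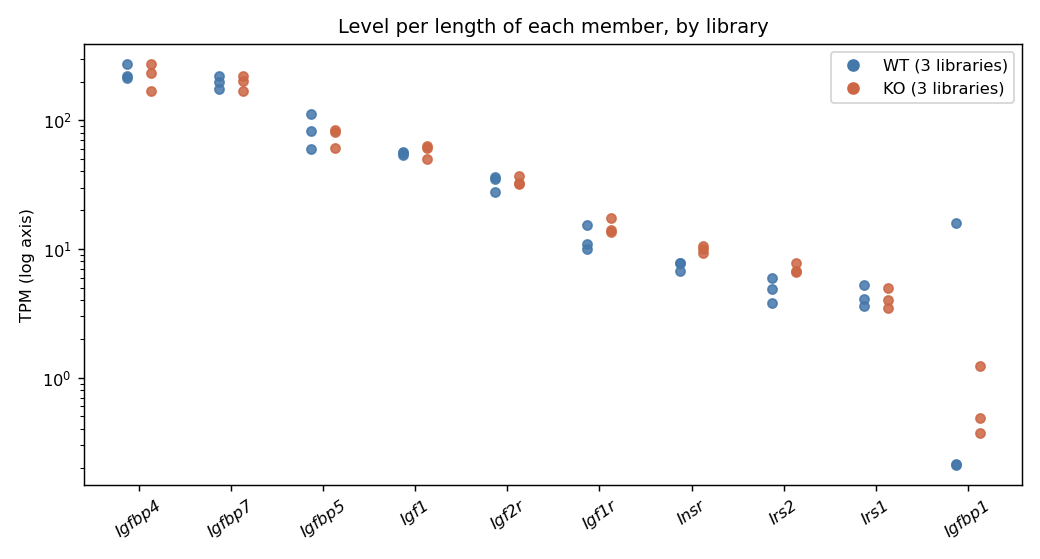
TPM (log axis) of the 10 members in order of their mean, with 1 point per library, WT in blue and KO in orange. Igfbp4 lies between 168 and 274 TPM and Irs1 between 3.48 and 5.26 TPM, and Igfbp1 lies lowest in every library except WT 1.

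The pathway around the members was read from lists by role. Counts in these lists are to be read against all tested genes, of which 5.62% were higher and 7.00% lower at an unadjusted p under 0.05. Of 7 tested ligands and receptors other than the members, 0 were higher and 2 lower in KO at an unadjusted p under 0.05, and the median log2 difference was 0.11. Those were the insulin genes. Ins2 had 2810, 3371 and 2901 CPM in WT and 2211, 2116 and 2291 CPM in KO, with no overlap (log2 -0.46 ± 0.12, SE; edgeR adjusted p = 0.235, DESeq2 adjusted p = 0.00221). Ins1 had a log2 difference of -0.40 ± 0.13 (SE, edgeR adjusted p = 0.280, DESeq2 adjusted p = 0.0461), and its unadjusted p exceeded 0.05 without WT 2. Igf2, named in addition as the other IGF ligand, had a log2 difference of 0.04 ± 0.11 (SE, edgeR adjusted p = 0.925).

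Among 18 other docking proteins and adaptors, 1 was higher and 0 lower at that p, with a median of 0.04. The 1 was Sos2, an exchange factor that activates RAS, at 36.5 ± 2.78 CPM in WT and 47.2 ± 6.28 CPM in KO (SD, n = 3, edgeR adjusted p = 0.273). Its log2 difference of 0.37 became 0.62 both with a length offset and in a fit to the scaled table the authors deposited, and 0.31 without WT 1, where its unadjusted p exceeded 0.05. Dok4, a docking protein, had the next smallest p, at 25.0 ± 3.24 CPM in WT and 20.6 ± 2.97 CPM in KO (SD, n = 3, edgeR adjusted p = 0.488), a log2 difference of -0.28 that was -0.17 without WT 1 and -0.16 without KO 2. No KO library overlapped WT for either gene.

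Of 29 receptor inhibitors and turnover genes, 3 were higher (Ptprb, Ceacam1 and Trib2) and 1 lower (Socs1), with a median of 0.10. Over all tested genes the shares at that p were 5.62% higher and 7.00% lower. Ptprb, a receptor phosphatase of endothelial cells, had 95.6, 89.6 and 98.1 CPM in WT and 115, 139.8 and 129 CPM in KO. Its log2 difference was 0.44 ± 0.10 (SE, edgeR adjusted p = 0.205, DESeq2 adjusted p = 0.0118), and without KO 1 the edgeR adjusted p was 0.0450. That setting called 362 genes, and without WT 3 the edgeR adjusted p of Ptprb was 0.669. Ceacam1, a cell adhesion protein that takes part in insulin clearance, stood at 11.7 ± 0.858 CPM in WT and 17.5 ± 5.03 CPM in KO (SD, n = 3, edgeR adjusted p = 0.295). KO 2 was its highest library at 23.3 CPM, the log2 difference of 0.58 was 0.32 without it, and the unadjusted p exceeded 0.05 without KO 2, WT 2 or WT 3. Trib2 and Socs1 were named after their values were seen.

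Among 9 other IGF binding proteins and related genes, 2 were higher and 0 lower, with a median of -0.01. Igfbp3, the main carrier of IGFs in serum, had 119, 112 and 99.8 CPM in WT and 138, 228 and 233 CPM in KO. All KO libraries lay above WT, KO 1 least so, and the log2 difference was 0.85 ± 0.19 (SE, edgeR adjusted p = 0.206, DESeq2 adjusted p = 0.00195). Without KO 1, a setting that called 362 genes, it was 1.06, with an edgeR adjusted p of 0.00554. Without WT 3 it was 0.79, with an edgeR adjusted p of 0.669. Ccn1, a matrix protein, had a log2 difference of 0.45 ± 0.18 (SE, edgeR adjusted p = 0.361), and its unadjusted p exceeded 0.05 with upper-quartile factors and without KO 1, KO 3, WT 2 or WT 3.

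Of 14 proteases of binding proteins and their inhibitors, 1 was higher and 1 lower, with a median of -0.01. Pappa, the protease that cleaves IGFBP4 and so frees IGF, had 14.1, 14.6 and 8.78 CPM in WT and 18.1, 19.5 and 31.4 CPM in KO, with no overlap (log2 0.88 ± 0.26, SE; edgeR adjusted p = 0.258, DESeq2 adjusted p = 0.0392). Without KO 3, its highest library, the log2 difference was 0.58. F2, the prothrombin gene, was at 9.93 ± 2.05 CPM in WT and 6.94 ± 0.622 CPM in KO (SD, n = 3, edgeR adjusted p = 0.313). F2, also a liver gene, was highest in WT 1 at 12.03 CPM. Its log2 difference of -0.52 was -0.36 without WT 1, and its unadjusted p exceeded 0.05 without WT 1, WT 3, KO 1 or KO 3.

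Of 9 genes of ligand and receptor maturation, 0 were higher and 1 lower, with a median of 0.03. The 1 was Pcsk1, a protease that processes proinsulin, at 65.4 ± 5.53 CPM in WT and 51.5 ± 6.39 CPM in KO (SD, n = 3, edgeR adjusted p = 0.290), and its unadjusted p exceeded 0.05 without WT 2, WT 3 or KO 2. Pcsk4, a protease of the same family, stood at 7.60 ± 0.0675 CPM in WT and 9.67 ± 2.19 CPM in KO (SD, n = 3, edgeR adjusted p = 0.497). Its KO 1 library, at 7.39 CPM, lay below all WT libraries, and the log2 difference of 0.35 was 0.51 without KO 1 and 0.18 without KO 3. Of 3 proteins that bind Igf2 mRNA, Igf2bp2 was higher, at 44.4 ± 0.591 CPM in WT and 55.1 ± 5.78 CPM in KO (SD, n = 3, edgeR adjusted p = 0.268), and Igf2bp3 had a log2 difference of 0.17 ± 0.11 (SE, edgeR adjusted p = 0.599), which was 0.092 without WT 2 and 0.087 without KO 3.

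The list of FOXO target genes holds genes described as targets, with the members left out. Of its 20 genes, Pck1, G6pc and Trim63 had too few reads to be tested. The list had the highest median of these lists, at 0.32 over 17 tested genes against 0.01 for all tested genes. In it, 16 of 17 had a positive log2 difference, against 8085 of all 15805 tested genes. At an unadjusted p under 0.05, 6 of the 17 were higher (Txnip, Fbxo32, Bnip3, Pdk4, Errfi1 and Klf15) and 1 lower (Sesn3), against 5.62% and 7.00% of all tested genes, and 0 passed the adjusted threshold in edgeR. For 4 of the 17 all KO libraries exceeded all WT libraries (9.07% of all tested genes), and for 1 the reverse held (10.3%). Over the settings tried, 4 to 8 were higher at that p. Because the list was chosen with earlier results of these libraries known, these counts describe it and are not independent evidence. Whether FOXO activity differed was not tested.

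Txnip, an inhibitor of thioredoxin that is also induced by glucose, had 592, 475 and 435 CPM in WT and 736, 852 and 981 CPM in KO. Its log2 difference was 0.77 ± 0.15 (SE, edgeR adjusted p = 0.205, DESeq2 adjusted p = 0.000261). Fbxo32, the ubiquitin ligase atrogin-1, had 11.4, 9.18 and 9.59 CPM in WT and 13.7, 15.9 and 14.7 CPM in KO, a log2 difference of 0.55 ± 0.14 (SE, edgeR adjusted p = 0.217, DESeq2 adjusted p = 0.0497). The KO libraries of both genes lay above all WT libraries. The other 5 were named after their values were seen: Pdk4, a kinase that inhibits pyruvate dehydrogenase, had a log2 difference of 0.87, Klf15 of 0.81, Errfi1 of 0.66, Bnip3 of 0.64 and Sesn3, a sestrin, of -0.34. Errfi1 had 29.0 to 36.7 CPM in WT and 36.5, 42.7 and 73.5 CPM in KO, and Klf15 had 12.7 to 18.1 CPM in WT and 15.7, 27.1 and 40.6 CPM in KO. For both the groups overlapped, KO 3 was highest, and the unadjusted p exceeded 0.05 without KO 3 and without WT 2. For Errfi1 it also did so without WT 3 and in the fit to the authors' scaled table. For Klf15 it also did so without WT 1, without KO 2 and in limma-voom.

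**Figure D5:**
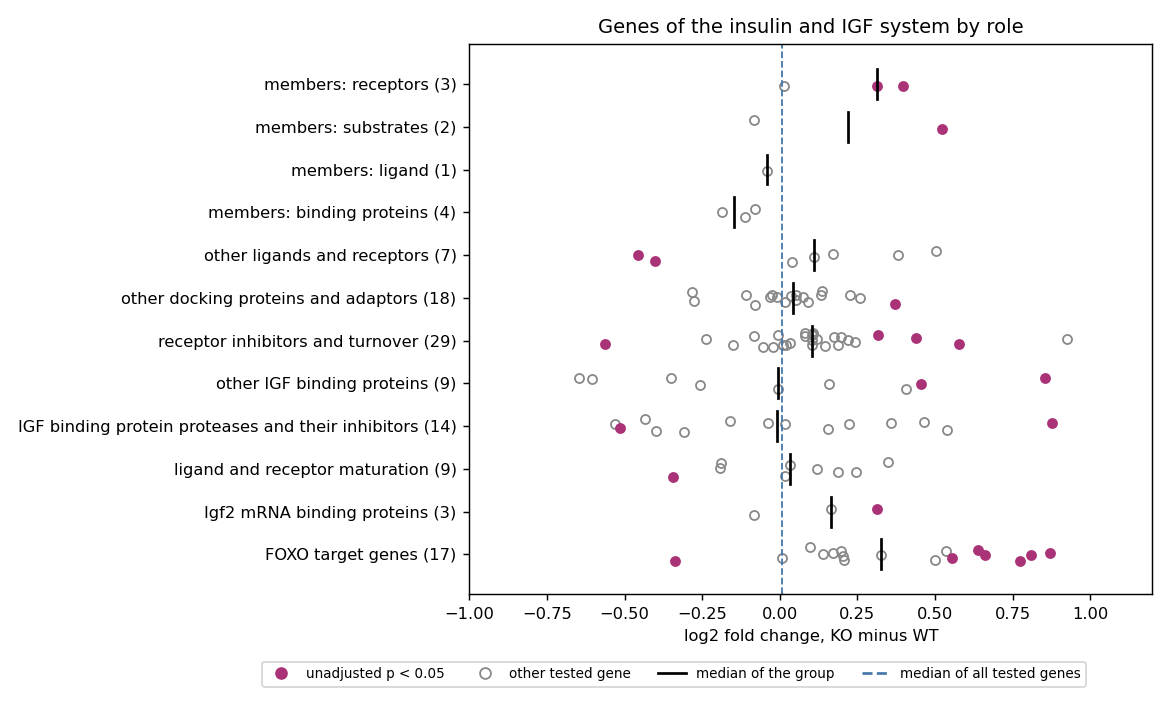
Log2 fold change of KO minus WT (horizontal axis) of each tested gene by role, with the number of tested genes in parentheses; filled points have an unadjusted edgeR p under 0.05, black bars are medians and the dashed line is the median of all tested genes. Igfbp1 and Ahsg, at -3.00 and -2.85, lie outside the axis. Points of the FOXO target genes lie mostly to the right, with a median of 0.32.

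Promoters of the members are shown where they held a motif tied to FOXO factors. RefSeq promoters (GRCm38.p6, 250 bases before to 50 after the start site) were matched for 9 of 10 members, all but Insr. CAAAACA, the core of the insulin response unit, was searched on both strands, so also as TGTTTTG, and was found in 3 of the 9 against 6.28% of all 32851 promoters. GTAAACA, the forkhead element, read also as TGTTTAC, was found in 0 of 9 against 3.65%. The motifs were chosen for their tie to FOXO and insulin, and Igfbp1 and Irs2 are known genes of that kind. These counts therefore describe the members and are not independent evidence. The 140 bases below begin 150 bases before the RefSeq start site and are written on the gene's strand, with the motif in capitals.
Irs2, chr8:11008940-11009079, minus strand: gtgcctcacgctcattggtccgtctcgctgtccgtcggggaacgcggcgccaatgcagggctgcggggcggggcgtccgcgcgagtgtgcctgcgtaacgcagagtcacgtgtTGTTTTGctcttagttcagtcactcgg
Irs1, chr1:82291450-82291589, minus strand: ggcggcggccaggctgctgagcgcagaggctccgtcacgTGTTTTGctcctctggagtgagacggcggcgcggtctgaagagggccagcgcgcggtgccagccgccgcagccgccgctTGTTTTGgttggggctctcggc
Igfbp1, chr11:7197637-7197776, plus strand: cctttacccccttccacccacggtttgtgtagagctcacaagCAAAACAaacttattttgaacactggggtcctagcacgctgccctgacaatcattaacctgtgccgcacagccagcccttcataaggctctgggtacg

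The motif of Irs2 begins at -37 from the start site, that of Igfbp1 at -108, and those of Irs1 at -111 and -32. The RefSeq start of Irs2 lies 471 bases before the start of the GENCODE transcript that was quantified. Irs2 and Irs1 share the motif, while their values in the libraries differed as given above, and a match of letters is no evidence of binding.

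Genes most like Insr across the libraries were found among 9761 genes with a mean of at least 10 CPM, by Pearson's r of log2(CPM + 1) over the 6 libraries, as a description. For Insr these were Phc3 (r = 0.994), Fbxo32 (0.991), Mtcp1 (0.989), Mindy2 (0.988) and Gpbp1l1 (0.985). Fbxo32 is also in the FOXO target list above. For Irs2 they were Med13 (r = 0.994), 1600012H06Rik (0.993), D10Wsu102e (0.992), Capg (0.987) and Lvrn (0.987). Insr and Irs2 had r = 0.843 with each other, Igf1r had 0.853 with Irs2 and 0.613 with Insr, and Irs1 had -0.38 with Insr and -0.35 with Irs2. All these values rest on the same 6 libraries, which include the difference between the groups.

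Summed levels of markers of several cell types also differed between the groups. Counts of marker genes at an unadjusted p under 0.05 are to be read against 5.62% higher and 7.00% lower over all tested genes. After adjustment edgeR called 0 genes. Summed over 10 cell cycle genes, WT had 852 to 1063 CPM and KO 247 to 651 CPM, with 10 of 10 lower in KO at an unadjusted p under 0.05. The 10 beta cell genes had 5526 to 6689 CPM in WT and 4347 to 4647 CPM in KO, with 4 lower (Ins1, Ins2, Mafa and G6pc2). The insulin genes make up most of this sum. For Iapp, Nkx6-1, Pdx1, Slc2a2, Slc30a8 and Ucn3 the groups overlapped. Of these, Slc2a2, Slc30a8 and Ucn3 had positive log2 differences (0.28, 0.25 and 0.56), and the rest had negative ones. The 10 endothelial genes had 769 to 870.9 CPM in WT and 871.1 to 922 CPM in KO, with 3 higher (Pecam1, Kdr and Flt1). These sums barely parted. Only Pecam1, Emcn and Eng had every KO library above WT. Kdr, Flt1, Tek, Tie1, Plvap, Cldn5 and Cdh5 overlapped, the last with a log2 difference of -0.04. Of 7 adipocyte genes 3 were tested and 2 were higher (Fabp4 and Lpl), and the list had 199 to 237 CPM in WT and 308 to 352 CPM in KO, while Lep and Cfd were at 0 in every library and Adipoq at 0 to 0.0508 CPM. Insr, Igf1r and Irs2 were higher in the same KO libraries, and the part of these cell types in the members' values was not tested. Acinar genes, the bulk of the tissue, overlapped between the groups, at 183100 to 264000 CPM in WT and 230400 to 289100 CPM in KO.

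Several members share their place with genes on the other strand. Among them are Igfbp7 with Polr2b, at 43.3 to 51.7 CPM, and Irs1 with Gm9747, at 0 to 0.120 CPM. Insr overlaps Gm16180, Igf2r overlaps Airn, Irs2 overlaps 9530052E02Rik and Igf1 overlaps Igf1os, none of which stood in the quantified set. The kit marks the strand, but the strand setting of the authors' quantification was not stated in the labels, so reads of such pairs may not have been told apart.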

How the data were processed

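Per the labels' protocols, RNA of whole pancreas was prepared with the NEBNext Ultra II stranded mRNA kit. Per the submitters' processing notes, bcl2fastq, Salmon 0.13.1 and DESeq2 1.24.0 were used, with build mm10. The authors deposited, for each library, Salmon's estimated counts per transcript, which are not whole and not normalized, its TPM values and, per the file headers, effective lengths. They also deposited a scaled signal for 17324 genes, used only in 1 alternative (0.566 to 0.791% of its values were whole, within 1e-06).

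Of 116248 transcripts, 115995 matched GENCODE M21 (GRCm38) by versioned identifier, and the other 253, with 0.0341 to 0.0458% of the reads, were not used. Counts were then summed per gene, rounded, filtered with filterByExpr and tested with edgeR 4.0.16 (R 4.3.3, TMM normalization, quasi-likelihood test, Benjamini-Hochberg adjustment over 15805 genes, called under 0.05). The biological coefficient of variation was 18.4% for genes and 54.0% for transcripts. Transcripts were tested likewise (42372 of them). Alternatives used DESeq2 1.42.0 and limma 3.58.1, other scaling factors, filters, lengths and libraries. Fits were tested first on simulated data, with a spread near that of the genes for genes and transcripts alike. The transcript fit was thus not tried at its own, wider spread. With 3 against 3 libraries an exact permutation test cannot go below p = 0.1. P-values measure the spread between these libraries, whose litter and batch are not given. Every pair of libraries differed beyond sampling noise (chi-square per degree of freedom 22.4 to 86.0).

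The members and lists were chosen with earlier results of these data known. Named were all 10 members, of each other list the called genes or else the 2 with the smallest p, and for Insr and Irs2 the 5 genes with the highest r. Marker lists were acinar, beta, other endocrine, ductal, mesenchyme, smooth muscle, mesothelium, endothelium, myeloid, lymphocyte, erythroid, nerve, adipocyte, liver, intestine, spleen and cell cycle. RefSeq tables (GRCm38.p6) gave the microRNA and promoters.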

Additional observations from a re-analysis of the deposited data

How the results depend on the processing

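The count of 0 called genes in edgeR became 1 with no filter on low counts, 419 in DESeq2, 2 in limma-voom and 2 without WT 1 and KO 2 together, and ranged from 0 to 362 when 1 library was left out, the 362 without KO 1. Leaving out 1 library gave log2 differences of 0.34 to 0.46 for Insr, 0.44 to 0.60 for Irs2 and 0.18 to 0.38 for Igf1r. Outside DESeq2, edgeR and limma adjusted p-values ran from 0.120 to 0.669 for Insr, 0.0693 to 0.669 for Irs2 and 0.229 to 0.702 for Igf1r.

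Signs turned only where estimates were near 0 or rested on WT 1: Igf2r (-0.01 with upper-quartile factors, -0.031 to 0.075 leaving out 1 library), Irs1 (-0.19 to 0.050), Igf1 (0.023 with a length offset, 0.032 in the authors' deposited table, 0.088 without WT 1 and KO 2, -0.17 to 0.041 leaving out 1 library) and Igfbp1 (1.88 without WT 1 and KO 2, -3.64 to 1.63 leaving out 1 library, -0.55 in limma-voom). The cause was not tested. Igfbp1 had no DESeq2 p and no value under a filter of 1 CPM in 3 libraries. By CPM per longest transcript 6 of 10 members kept their rank. No paired analysis was possible because replicate numbers follow the order of the samples and pair no mice. Depth limits Igfbp1 and the minor Insr transcripts.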

Other observations

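The other marker lists overlapped between the groups in summed CPM, except intestine and spleen and lymph node stroma. Intestine was at 19.9 to 21.1 CPM in WT and 25.5 to 34.5 CPM in KO, but of its genes only Lgals4 parted the groups. Lgals4 had 7.88 to 9.34 CPM in WT and 15.5 to 23.3 CPM in KO, while Vil1 overlapped at a log2 difference of -0.32. Spleen and lymph node stroma was at 14.3 to 16.4 CPM in WT and 6.20 to 12.4 CPM in KO. There only Madcam1 parted the groups, at 11.1 to 13.1 CPM in WT and 4.70 to 8.86 CPM in KO. Erythroid genes were at 5940 CPM in WT 1 and 4787 CPM in KO 2, against 1705 to 2836 CPM in the other libraries. Without this pair of libraries the log2 difference was 0.43 for Insr (edgeR adjusted p = 0.375), 0.50 for Irs2 (0.414) and 0.33 for Igf1r (0.512).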
